A study of Mus musculus with 8 samples.

Results

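The fibrillar collagens are the collagen chains that assemble into the banded fibrils of connective tissue. The 9 genes of the family, Col1a1, Col1a2, Col2a1, Col3a1, Col5a1, Col5a2, Col5a3, Col11a1 and Col11a2, were taken by symbol from the 16686 genes with counts in a single expression table, and all 9 were listed. RNA was sequenced from the tibialis anterior (TA), a fast-twitch muscle of the lower leg, of 8 male mice on the FVBN background labelled 22 months old, with 1 library per mouse and 4 mice in each genotype. WT Old mice were wild type. C2-/- Old mice carried a germline deletion of Mybpc2, the gene of fast myosin-binding protein C, in which a run of exons was replaced by a neomycin cassette flanked by LoxP sites. The whole muscle was homogenised, so that more cells of a type and more RNA per cell cannot be told apart, and the deletion was not restricted to a tissue.

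Mybpc2 was checked first. It lay between 4964 and 7392 CPM (read counts scaled to a common library size and composition) in the WT Old mice. It was 4.35, 4.02 and 3.85 CPM in C2-/- Old mice 1, 2 and 4, and 38.3 CPM in C2-/- Old mouse 3, so the labels held in all 8 mice but mouse 3 kept more reads of the gene than the other knockouts. The libraries held 25425993 to 29747692 counts, and 3 counts corresponded to 0.101 to 0.118 CPM. Summed muscle fibre markers were 139721 to 183378 CPM in WT Old and 146038 to 163539 CPM in C2-/- Old mice.

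Type I collagen, built from α1 and α2 chains, is the main tensile fibril of tendon, skin and the sheaths around muscle fibres. Type III collagen is a homotrimer of Col3a1 chains that forms fine fibrils together with type I. Type V and type XI chains start fibrils and limit their width, and type II collagen belongs to cartilage. In muscle these RNAs are made mainly by fibroblasts of the connective tissue sheaths and by tendon cells, not by the muscle fibres.

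Col1a1, Col1a2, Col3a1, Col5a1 and Col5a2 had mean CPM 1.7 to 2.61 times as high in C2-/- Old as in WT Old mice, and in CPM each was higher in every C2-/- Old mouse than in every WT Old mouse. In the TPM values deposited by the authors, which are scaled by transcript length, the same separation was seen for 2 of the 5, Col1a1 and Col5a2, while Col1a2, Col3a1 and Col5a1 overlapped. Col5a3, Col11a1 and Col11a2 overlapped between the genotypes, and Col2a1 was at or near the limit of detection in all mice. None of the 8 genes of the family that could be tested passed an adjusted p of 0.05 by edgeR's quasi-likelihood test, which called 4 of 12542 genes (0.0319%). When the limit was an unadjusted p under 0.05 with more than a 1.5-fold difference, 5 of 8 were higher in C2-/- Old mice, against 257 of all tested genes (2.05%). By DESeq2, which called 39 of 12514 genes (0.312%), Col1a1 and Col5a2 had an adjusted p of 0.0405, and by limma-voom none passed. No overlap in the upward direction was seen for 254 of all tested genes in CPM (2.03%) and for 298 in TPM (2.38%). At an unadjusted p under 0.05 with any fold, 424 genes (3.38%) were higher and 239 genes (1.91%) were lower.

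**Figure D1:**
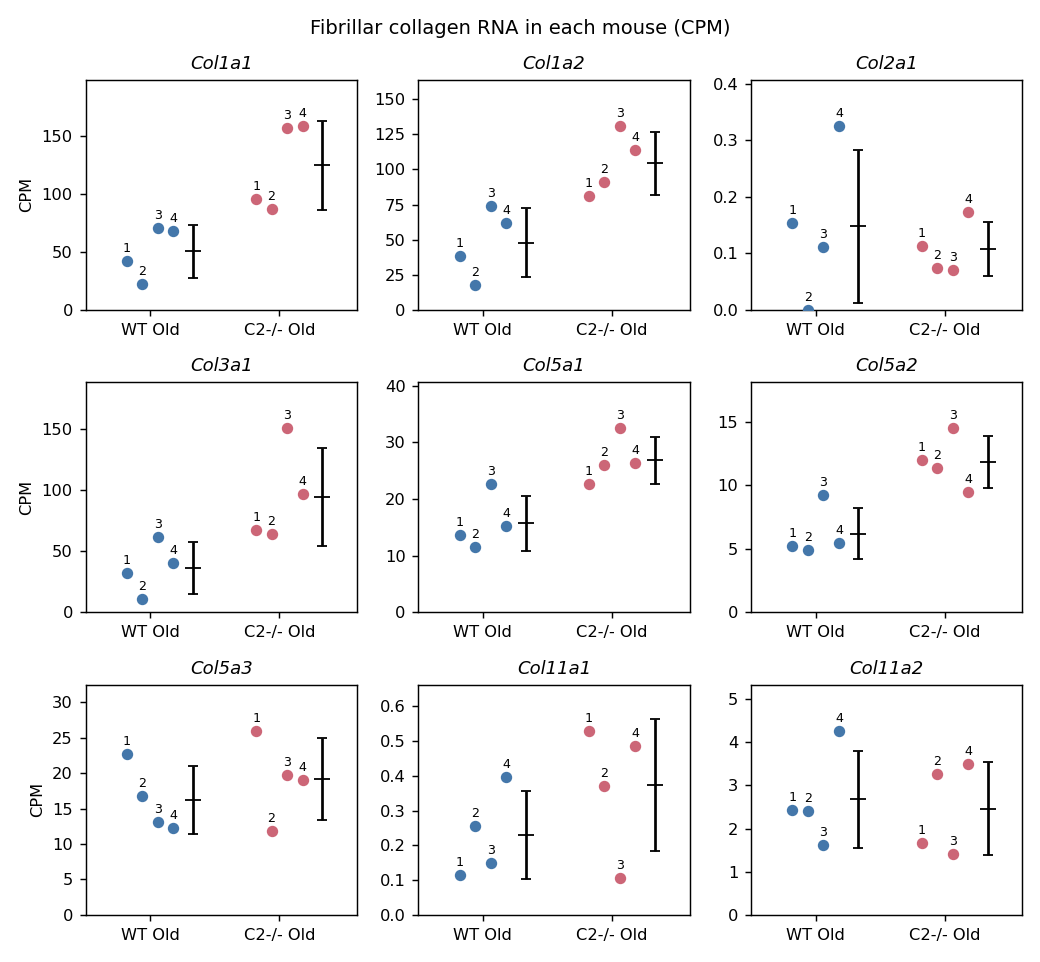
CPM of each fibrillar collagen gene (vertical axis, linear from 0) in each mouse, numbered by replicate, for WT Old (blue) and C2-/- Old (red); black bars give the mean and SD of 4 mice. On this scale the genotypes do not overlap for Col1a1, Col1a2, Col3a1, Col5a1 and Col5a2, and overlap for the other 4.

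Col1a1 lies on chromosome 11 at 94936224 to 94953042, plus strand (GRCm38.p6, as are all positions here). Its CPM was 42, 22.1, 70.7 and 68 in WT Old mice 1 to 4 and 96.2, 87, 157 and 159 in C2-/- Old mice 1 to 4. Every knockout mouse lay above the highest wild type. The means were 50.7 ± 23 and 125 ± 38.3 CPM (SD, n = 4 each), a log2 fold change of 1.30 (SE 0.35, unadjusted p = 0.00366, adjusted p = 0.608, edgeR).

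Col1a2, the partner chain of Col1a1, lies on chromosome 6 at 4503476 to 4541543, plus strand. It was 38.4, 17.9, 73.8 and 61.6 CPM in WT Old mice 1 to 4 and 80.9, 91.2, 131 and 114 CPM in C2-/- Old mice 1 to 4. The genotypes did not overlap in CPM, but in TPM WT Old mouse 3 (27.8) lay above C2-/- Old mouse 1 (27.7). The log2 fold change was 1.12 (SE 0.36, unadjusted p = 0.0107, adjusted p = 0.755, edgeR).

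Col3a1 lies on chromosome 1 at 45311538 to 45349706, plus strand. It was 32, 10.7, 61.8 and 40.4 CPM in WT Old mice 1 to 4 and 67.1, 63.8, 150.4 and 96.5 CPM in C2-/- Old mice 1 to 4. C2-/- Old mouse 3, the knockout with the most Mybpc2 reads, was the highest. The genotypes were separate in CPM, but in TPM WT Old mouse 3 (21.9) lay above C2-/- Old mouse 1 (21.6). The log2 fold change was 1.38 (SE 0.45, unadjusted p = 0.0117, adjusted p = 0.755, edgeR). Without C2-/- Old mouse 3 it was 1.06 (unadjusted p = 0.0436, edgeR). Within the wild types alone the highest mouse had 5.76 times the CPM of the lowest.

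Col5a2, a type V chain, lies next to Col3a1 on the opposite strand of chromosome 1, at 45374331 to 45503282. The genes point towards each other with 24624 bases between their ends, and in the table both also lie inside a long interval given for Rcor3. Col5a2 was 5.21, 4.92, 9.22 and 5.47 CPM in WT Old mice 1 to 4 and 12, 11.4, 14.5 and 9.46 CPM in C2-/- Old mice 1 to 4. The groups were separate, but only narrowly between WT Old mouse 3 and C2-/- Old mouse 4. Its log2 fold change of 0.93 (SE 0.22, unadjusted p = 0.00172, adjusted p = 0.571, edgeR) had the smallest p of the family.

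Col5a1, the chain shared by most type V trimers, lies on chromosome 2 at 27882925 to 28039510, plus strand. It was 13.6, 11.5, 22.6 and 15.3 CPM in WT Old mice 1 to 4 and 22.6, 26, 32.5 and 26.3 CPM in C2-/- Old mice 1 to 4. WT Old mouse 3 and C2-/- Old mouse 1 were equal to the digits given, and in TPM WT Old mouse 3 (5.35) lay above C2-/- Old mouse 1 (4.87). The log2 fold change was 0.77 (SE 0.20, unadjusted p = 0.00352, adjusted p = 0.608, edgeR).

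Col5a3, the third type V chain, lies on chromosome 9 at 20770057 to 20815117, on the plus strand in the table and on the minus strand in RefSeq. It was 22.7, 16.8, 13.1 and 12.3 CPM in WT Old mice 1 to 4 and 26, 11.9, 19.7 and 19 CPM in C2-/- Old mice 1 to 4. The lowest of all 8 mice and the highest were both knockouts. The log2 fold change was 0.24 (SE 0.25, unadjusted p = 0.364, adjusted p = 0.97, edgeR), and the difference of its change from that of Col5a1 was tested as a ratio, described with the other ratios.

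The type XI chains were low. Col11a1, on chromosome 3 at 114030479 to 114223684, plus strand, had 3 to 11 counts in WT Old and 3 to 14 counts in C2-/- Old mice, and a log2 fold change of 0.68 (SE 0.57, unadjusted p = 0.257, edgeR). Col11a2, on chromosome 17 at 34038506 to 34066684, plus strand, was 1.61 to 4.27 CPM in WT Old and 1.42 to 3.5 CPM in C2-/- Old mice. Its log2 fold change was -0.12 (SE 0.37, unadjusted p = 0.754, edgeR), and its interval in the table overlaps those of Trem1, 1700001C19Rik, Nfya and H2-Ea-ps. Col2a1, on chromosome 15 at 97975602 to 98004724, minus strand, had 0 to 9 counts per mouse, was removed by the filter on low counts and was not tested. Of the cartilage markers, Matn3, Hapln1 and Col10a1 stayed at or below 3 counts in all mice. Sox9 was detected, at 2.24 to 20.4 CPM in WT Old and 2.99 to 4.57 CPM in C2-/- Old mice. Its log2 fold change was -1.03 (SE 0.57, unadjusted p = 0.101, edgeR). The tested cartilage markers, Sox9 and Col9a1, had a median of -1.23. Summed cartilage markers were 2.97 to 21.2 CPM in WT Old and 3.48 to 5.06 CPM in C2-/- Old mice. WT Old mouse 2 had the highest sum.

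**Figure D2:**
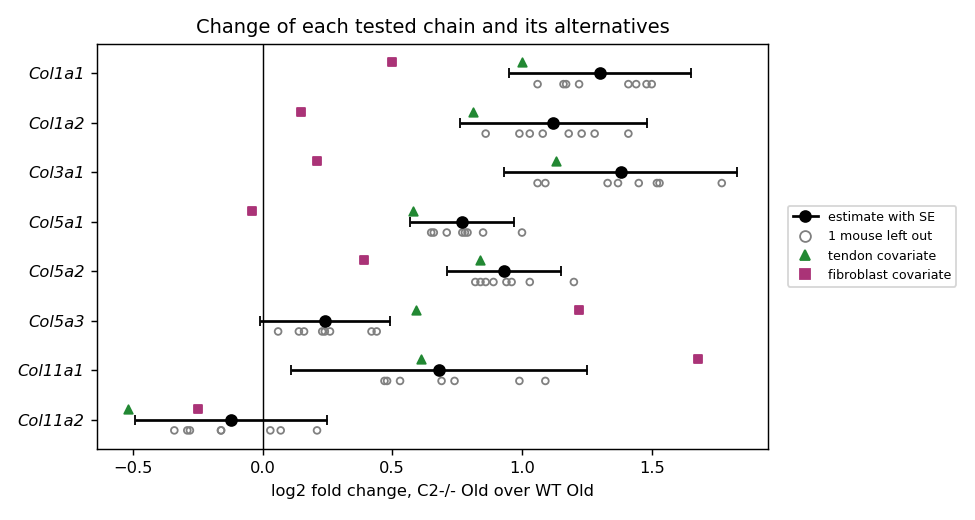
Log2 fold change of C2-/- Old over WT Old (horizontal axis) for each tested chain, as black points with the SE, with open circles for fits that leave out 1 mouse and coloured marks for fits with a marker level as a covariate. Leaving out a mouse kept Col1a2 between 0.86 and 1.41, while with the fibroblast covariate it was 0.15.

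Sequence around the start of the genes is shown because several members had higher means together. RefSeq promoter entries (GRCm38.p6) were found for 6 of the 9 genes, Col1a2, Col3a1, Col5a1, Col5a3, Col11a1 and Col11a2. The 150 bases before the start are given 5′ to 3′ on the gene's strand for 3 genes with a higher mean in C2-/- Old mice and for Col5a3, with CCAAT or TATAAA (searched on both strands) in capitals. The start is that of the RefSeq entry, which for Col1a2 and Col5a1 lies inside the gene's interval in the table, and the Col5a3 window overlaps the end of its interval.
Col1a2, chr6:4505468-4505617, plus strand: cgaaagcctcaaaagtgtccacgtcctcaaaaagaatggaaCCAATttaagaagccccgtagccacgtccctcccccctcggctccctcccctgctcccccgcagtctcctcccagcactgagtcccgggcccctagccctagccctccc
Col3a1, chr1:45311388-45311537, plus strand: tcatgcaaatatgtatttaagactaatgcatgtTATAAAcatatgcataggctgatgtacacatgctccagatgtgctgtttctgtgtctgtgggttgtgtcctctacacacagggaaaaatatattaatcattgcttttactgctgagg
Col5a1, chr2:27886275-27886424, plus strand: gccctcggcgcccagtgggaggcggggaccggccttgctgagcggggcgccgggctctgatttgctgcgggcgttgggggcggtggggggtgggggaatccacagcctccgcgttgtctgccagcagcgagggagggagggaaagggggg
Col5a3, chr9:20815068-20815217, minus strand: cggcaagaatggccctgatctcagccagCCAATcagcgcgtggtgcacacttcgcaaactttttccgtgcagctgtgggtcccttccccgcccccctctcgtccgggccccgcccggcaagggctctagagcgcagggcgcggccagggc
These windows differed from each other. CCAAT was present in those of Col1a2, Col5a3 and Col11a1 and in 24.5% of 32851 promoters, and TATAAA in those of Col3a1 and Col11a2 and in 7.57%. GC content was 37.3% for Col3a1, 62.7% for Col1a2 and 74.7% for Col5a1.

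A sequence that most members share lies at the other end of the transcript. The miR-29 family is known to repress fibrillar collagen RNAs in fibroblasts. No miRNA was measured here. The mature sequences (RefSeq) share the seed, bases 2 to 8, in capitals.
mmu-miR-29a-3p: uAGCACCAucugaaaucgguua
mmu-miR-29b-3p: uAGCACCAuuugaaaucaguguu
mmu-miR-29c-3p: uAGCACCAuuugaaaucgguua
The reverse complement of this seed, TGGTGCT, was searched on the transcript's strand in the 3′ UTR of the longest coding transcript (GENCODE vM21). It occurred 4 times in Col5a1, 3 times in Col5a3, 2 times in Col11a1 and once each in Col1a1, Col2a1, Col3a1 and Col5a2, and not in the Col1a2 UTR of 882 bases. The Col11a2 transcript had no 3′ UTR in the annotation. At least 1 match was found in 14.3% of 12153 tested genes with a 3′ UTR, and at least 2 in 2.3%. The median length of these UTRs was 999 bases. Those of the members with a UTR ran from 438 bases in Col2a1 to 2498 in Col5a1. Examples are printed with the match in capitals.
Col1a1, chr11:94952526-94952552, plus strand: ggaaggaatttcTGGTGCTatagaagc
Col3a1, chr1:45348970-45348996, plus strand: aaaatgtctcaaTGGTGCTataataaa
Col5a2, chr1:45374958-45374984, minus strand: ttcttttaatgaTGGTGCTaaaattat
Col5a3, chr9:20770496-20770522, minus strand: caccaggcctttTGGTGCTattccttt
A match is a description of the letters and not a measured site. Whether the matches have any link to the differences between the genotypes was not tested.

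The 5 genes that were separate in CPM shared the order of the WT Old mice, but not that of the C2-/- Old mice. In 5 of 5, the WT Old mice ran from mouse 2 at the bottom through mice 1 and 4 to mouse 3 at the top, and in 4 of 5 C2-/- Old mouse 3 was the highest knockout. After the genotype means were removed, log2 CPM of Col1a1 had a Pearson r over the 8 mice of 0.96 with Col1a2 and 0.95 with Col3a1. It was 0.79 with Col5a1, 0.48 with Col5a2 and -0.20 with Col5a3. These are descriptions over 8 libraries that also share their tissue composition. Among the genes outside the family most like Col1a1 were Col6a1, a chain of the microfibrillar collagen VI (r = 0.99), Tirap (0.99), Nlk and Myoz3 (each 0.98). Of these, Col6a1 had a log2 fold change of 0.83 (unadjusted p = 0.00308) and Myoz3, a Z-disc protein of fast fibres, one of 0.01. Those most like Col3a1 were Map2k6, Kcnj12, Plcl1, Col18a1 and Elp4 (0.98 to 0.99), and those most like Col5a2 were Pnpt1, Dse, Septin9, Guf1 and Fam3c (0.95 to 0.96).

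Levels of different chains were compared per length, as length-scaled transcript abundances (TPM) deposited by the authors. In WT Old mice the order was Col1a2 (16.8 ± 9.62 TPM), Col1a1 (15.6 ± 7.81), Col3a1 (12 ± 7.73), Col5a3 (4.72 ± 1.3), Col5a1 (3.43 ± 1.34), Col5a2 (1.7 ± 0.699) and Col11a2 (0.785 ± 0.323), each as mean and SD of 4 mice. Col11a1 (0.065 ± 0.0451 TPM) and Col2a1 (0.0525 ± 0.0457 TPM) came last. The 3 highest chains lay within each other's SD, as did Col5a3 and Col5a1, and Col11a1 and Col2a1. In C2-/- Old mice the order was Col1a1 (39.6 ± 12.5 TPM), Col1a2 (37.7 ± 8.38), Col3a1 (31.9 ± 13.3), Col5a1 (6.06 ± 0.96), Col5a3 (5.85 ± 1.57), Col5a2 (3.36 ± 0.537), Col11a2 (0.843 ± 0.404), Col11a1 (0.0975 ± 0.0472) and Col2a1 (0.0425 ± 0.0189).

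The summed TPM of the 9 genes was 47.3, 23.6, 86.1 and 63.8 in WT Old mice 1 to 4 and 94.7, 99.8, 163 and 144 in C2-/- Old mice 1 to 4. Every knockout had a larger sum than every wild type. Type I chains made up 56.9 ± 6.44% of the sum in WT Old and 61.7 ± 3.05% in C2-/- Old mice, and type III 20.1 ± 5% and 24.8 ± 3.93%. The type V share was 21 ± 9.67% in WT Old and 12.7 ± 2.9% in C2-/- Old mice, and WT Old mouse 2, which had the smallest sum, had the largest type V share at 33.9%. Type XI made up 1.83 ± 0.932% and 0.803 ± 0.417%. The shares overlapped between the genotypes for types I, III, V and XI, and they are given as descriptions with no test.

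**Figure D3:**
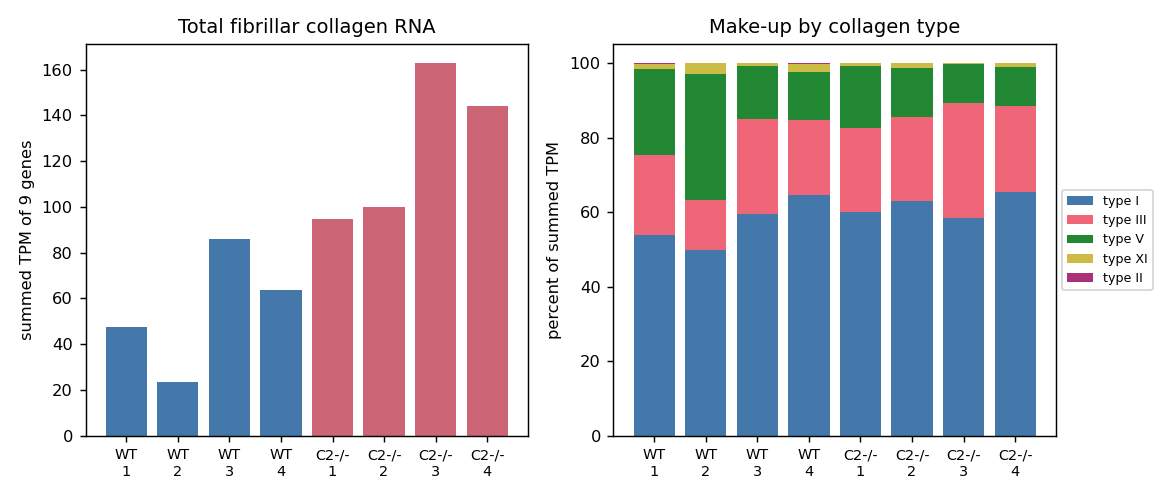
Left, summed TPM of the 9 fibrillar collagen genes in each mouse (bars from 0); right, the percentage of that sum from each collagen type, stacked. Sums run from 23.6 to 86.1 in WT Old and from 94.7 to 163 in C2-/- Old mice, and type V takes 33.9% in WT Old mouse 2.

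The ratio of 2 chains in the same mouse does not depend on the scaling of the library. The 9 ratios chosen within the family were compared by two-sided exact permutation tests of log2 count ratios, for which 4 against 4 mice allow no p under 0.0286. None of them differed at an unadjusted p under 0.05. The TPM ratio of Col1a1 to Col1a2 was 0.962, 1.09, 0.843 and 0.97 in WT Old mice 1 to 4 and 1.04, 0.839, 1.05 and 1.22 in C2-/- Old mice 1 to 4. The log2 difference of this ratio was 0.10 (SE 0.14, exact p = 0.514, adjusted p = 0.579). Col3a1 to Col1a1 differed by 0.16 (SE 0.23, exact p = 0.514). Col5a1 to Col1a1 was lower by a log2 difference of -0.58 in C2-/- Old mice (SE 0.31, exact p = 0.0857, adjusted p = 0.514), with overlap. Col5a3 to Col5a1 also differed by -0.58, with a larger error (SE 0.46, exact p = 0.229, adjusted p = 0.514), so that the smaller change of Col5a3 was not shown to differ from that of Col5a1.

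Of the 6 ratios to other matrix genes, none passed the exact test either. Col1a1 to Col4a1, a basement membrane collagen made by endothelial and other cells, was higher by a log2 difference of 1.16 (SE 0.46, exact p = 0.0571, adjusted p = 0.0857). Col3a1 to Col4a1 was higher by 1.32 (SE 0.60) and Col5a2 to Col4a1 by 0.74 (SE 0.23), each with exact p = 0.0571. Col1a1 to Col6a1 was higher by 0.51 (SE 0.20, exact p = 0.0571), and Col1a1 to Dcn, the small proteoglycan decorin that binds fibrils, by 1.05 (SE 0.50, exact p = 0.114). With limma on the same ratios, 4 of the 6 had an unadjusted p under 0.05, Col1a1, Col3a1 and Col5a2 to Col4a1 and Col1a1 to Dcn, each with an adjusted p of 0.0494. The differences leaned on WT Old mouse 2, without which Col3a1 to Col4a1 was 0.80, Col1a1 to Dcn 0.67 and Col3a1 to Col6a1 0.39, against 0.67 with it.

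**Figure D4:**
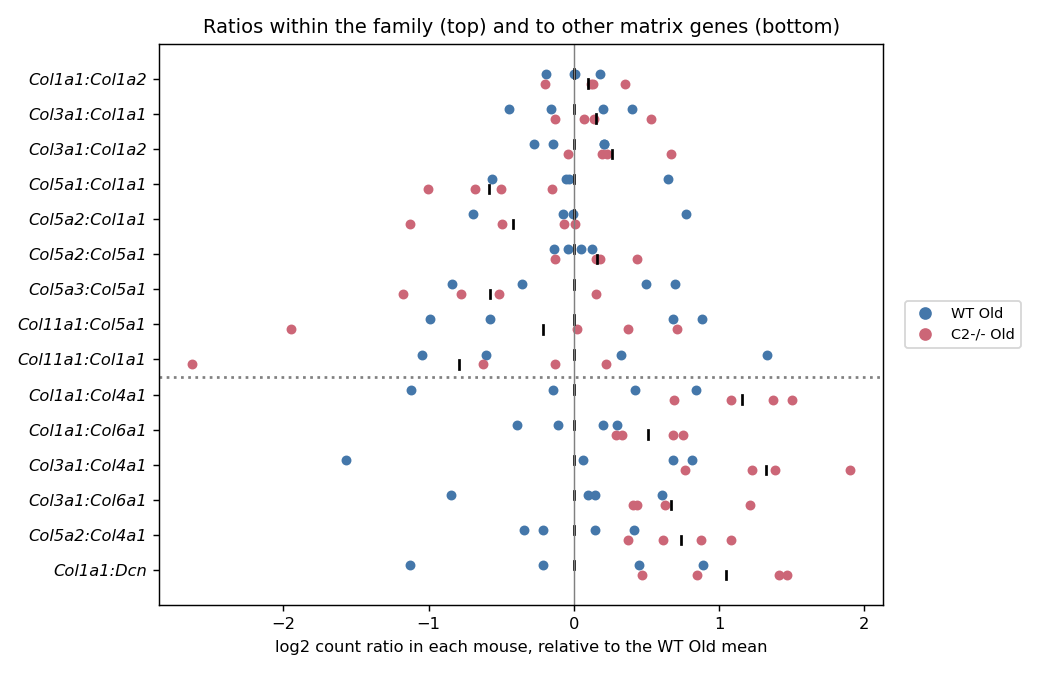
Log2 count ratio in each mouse minus the WT Old mean (horizontal axis) for 9 ratios within the family (above the dotted line) and 6 to other matrix genes (below), with black ticks for group means. Col1a1:Col1a2 differs by 0.10 between the genotypes and Col1a1:Col4a1 by 1.16, and every ratio overlaps.

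The genes that make, assemble and remove fibrils were described from lists chosen with earlier results of these data known, and no list had a gene with an adjusted p under 0.05. Across the 12542 tested genes the log2 fold change had a median of -0.02, and across the 8 tested fibrillar collagens one of 0.85. Of all tested genes, 3.38% were higher and 1.91% lower at an unadjusted p under 0.05. The lists are not independent. Of the fibril surface genes, Lum and Dcn are also fibroblast markers, Fmod, Kera and Comp tendon markers and Col9a1 a cartilage marker. Of the genes for folding and modification, 5 of 19 were higher at an unadjusted p under 0.05 and 0 lower, with a median of 0.13. They included Fkbp10 (log2 fold change 1.03), a prolyl isomerase of the endoplasmic reticulum, Serpinh1 (0.55), the procollagen chaperone HSP47, Sparc (0.34) and P3h3 (0.49), a prolyl 3-hydroxylase. Of the procollagen processing and crosslinking genes, 3 of 11 were higher and 0 lower, with a median of 0.42. These were Pcolce (0.73), which enhances removal of the C-propeptide, Bmp1 (0.42), the protease that removes it, and Loxl1 (0.30), a lysyl oxidase.

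Of the genes at the fibril surface, 7 of 15 were higher and 1 lower, with a median of 0.75. Podn was higher by 0.91, the fibronectin gene Fn1 by 1.20 and the periostin gene Postn by 0.95 on the log2 scale. Col9a1, a cartilage collagen that coats type II fibrils, was the exception at -1.44 (unadjusted p = 0.00403, adjusted p = 0.615, edgeR). Its level was low, at 0.886 CPM on average in WT Old and 0.324 CPM in C2-/- Old mice. Of the receptors, 2 of 8 were higher and 0 lower, Mrc2, an endocytic collagen receptor (0.85), and Itga10 (1.08), with a median of 0.12.

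Of the genes of collagen breakdown, 4 of 9 were higher and 1 lower, with a median of -0.22. Mmp2, a gelatinase, was 26.1 ± 4.63 CPM in WT Old and 44.4 ± 6.23 CPM in C2-/- Old mice (SD, n = 4 each), a log2 fold change of 0.77 (SE 0.15, unadjusted p = 0.000468, adjusted p = 0.391, edgeR). Ctsk, the collagen-cleaving cathepsin K, was higher by 1.01 and the inhibitor gene Timp2 by 0.62, while the inhibitor gene Timp4 was lower at -0.88. Of 14 genes that feed transforming growth factor beta signalling, 0 were higher and 0 lower, with a median of 0.07. The smallest p there was that of Ltbp1, a latent-factor binding protein (0.38, unadjusted p = 0.0831). Collagen VI genes were higher in 3 of 4, Col6a1 (0.83), Col6a2 (0.87) and Col6a3 (0.92), and of the basement membrane collagens 2 of 7 were higher, Col15a1 (0.63) and Col18a1 (0.58), with a median of 0.23. Col24a1 and Col27a1, the remaining genes of the fibrillar class, had 0 higher and 0 lower, with Col27a1 at 0.59 (unadjusted p = 0.0687).

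**Figure D5:**
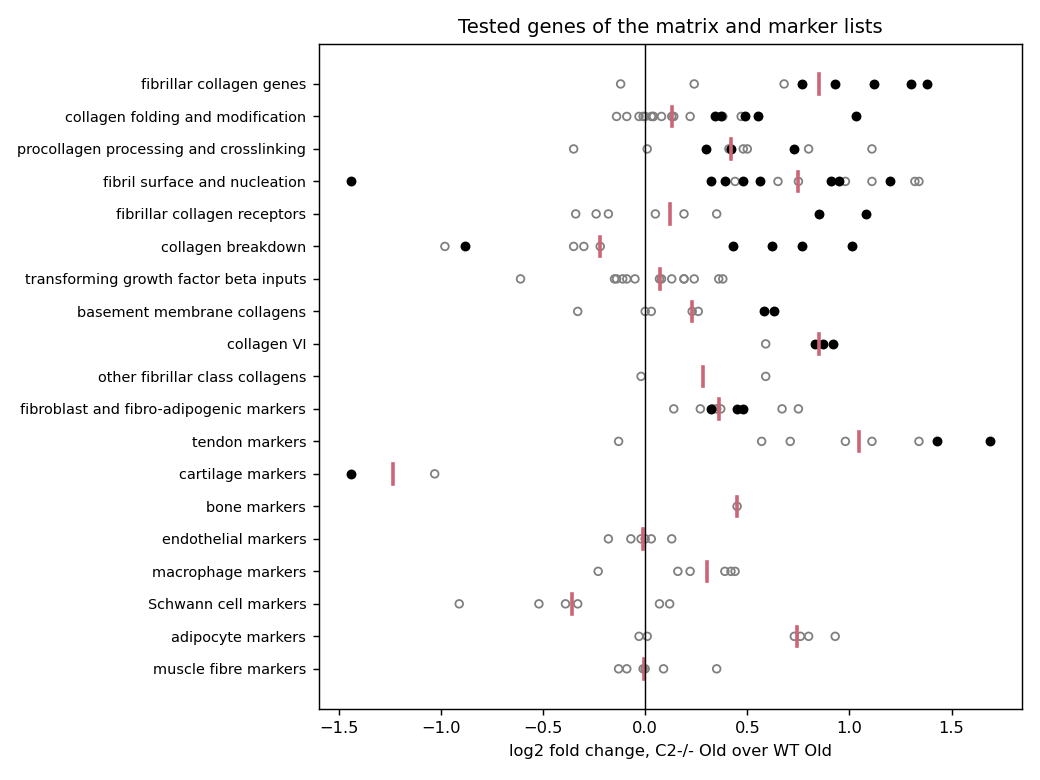
Log2 fold change of C2-/- Old over WT Old (horizontal axis) for each tested gene of each list, filled where the unadjusted p was under 0.05, with a red tick at the median. The median is 0.85 for the fibrillar collagens, 0.85 for collagen VI and 0.07 for the transforming growth factor beta inputs.

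Markers of the cells that make these collagens were examined beside them, and none passed an adjusted p of 0.05. The shares of all tested genes at an unadjusted p under 0.05 were 3.38% higher and 1.91% lower. Of the fibroblast and fibro-adipogenic markers, 10 of 10 had a positive log2 fold change and 3 of 10 were higher at an unadjusted p under 0.05, Gsn (0.45), Dpt (0.48) and Dcn (0.32), and Dcn is also in the list of the fibril surface. Among those that did not pass were Pdgfra (0.37, unadjusted p = 0.0792), Cd34 (0.33, unadjusted p = 0.0818) and Ly6a (0.14, unadjusted p = 0.587, all edgeR). The summed level of the 10 markers was 759 to 888 CPM in WT Old and 944 to 1115 CPM in C2-/- Old mice, without overlap. Most of it came from Gsn (405 CPM on average in WT Old mice) and Dcn (235 CPM). With this level as a covariate, Col1a1 had a log2 fold change of 0.50 (SE 0.78, unadjusted p = 0.531), Col3a1 one of 0.21 (SE 0.95) and Col5a1 one of -0.04 (SE 0.38). Of the tested members, only Col5a3 then had an unadjusted p under 0.05, with a log2 fold change of 1.22 (unadjusted p = 0.0349, edgeR). Since the marker level separates the genotypes, this summed marker level and the genotype cannot be told apart in these mice. Summed tendon markers were 59.2 to 179.6 CPM in WT Old and 93.2 to 252 CPM in C2-/- Old mice. Most of this sum came from Fmod (46.3 CPM on average in WT Old mice) and Thbs4 (42.8 CPM). Of the 8 tested tendon markers, 7 had a positive log2 fold change and 1 a negative one, Scx at -0.13, with a median of 1.05. Cilp2 (1.69) and Tnmd (1.43), with WT Old means of 0.901 and 0.815 CPM, were the 2 of 8 higher at an unadjusted p under 0.05. WT Old mouse 2, lowest in the 5 collagens, also had the lowest tendon sum, and WT Old mouse 3 the highest of the wild types. Among the knockouts, mouse 3, the highest in 4 of the 5 collagens, had a tendon sum of 129 CPM. C2-/- Old mouse 2, the lowest knockout in Col1a1 and Col3a1, had one of 239 CPM. With the tendon level as a covariate, Col1a2 had a log2 fold change of 0.81 (SE 0.32, unadjusted p = 0.031) and Col3a1 one of 1.13 (SE 0.45, unadjusted p = 0.0321), and 5 members had an unadjusted p under 0.05 and more than a 1.5-fold difference. These were not the same 5, since Col5a3 came in at 0.59 (unadjusted p = 0.0217, edgeR) and Col5a1 was just short of the fold limit at 0.58 (unadjusted p = 0.0143, edgeR). Of the endothelial, macrophage, Schwann cell, adipocyte and muscle fibre markers, 0 were higher and 0 lower at an unadjusted p under 0.05. Median values on the log2 scale were -0.01 for endothelial, 0.31 for macrophage, -0.36 for Schwann cell and 0.75 for adipocyte markers, of which 5 of 6 were positive, Adipoq at 0.93 (unadjusted p = 0.0521, edgeR). Their summed levels in WT Old against C2-/- Old mice were 213 to 314 against 212 to 278 CPM for endothelial, 26.6 to 66.2 against 45.2 to 72 CPM for macrophage, 36.2 to 84.3 against 30.3 to 65.5 CPM for Schwann cell and 89.6 to 133 against 95.3 to 146 CPM for adipocyte markers, the last mostly from Fabp4 (log2 fold change 0.01). The part of tendon tissue in the result was not tested beyond this covariate.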

How the data were processed

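RNA of TA muscle from 4 WT Old and 4 C2-/- Old mice was enriched with oligo(dT) and sequenced as DNA nanoballs. Per the study's methods, reads were aligned with HISAT to GRCm38.p6 and counted with featureCounts. The processing notes of the samples also name Bowtie2, so which tool made the deposited counts is not certain. The authors deposited estimated counts per gene that were not normalized, of which 5.5% to 6.53% per mouse are not whole, so they were rounded. The authors also deposited TPM values, which were used for levels between genes. The 8 other per-mouse columns, and the columns with the fold changes and p-values of the authors' own comparison, were not used. Of 16687 rows, 16686 had counts, and 24 symbols were restored from gene IDs. The labels state an age of 22 months, while a husbandry entry names a younger age.

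Genotypes were taken from the labels. Genes were tested in edgeR 4.0.16 (R 4.3.3) by quasi-likelihood, with TMM factors of 0.929 to 1.03, the default filter, which left 12542 genes, and Benjamini-Hochberg adjustment over them. CPM uses the same factors. DESeq2 1.42.0 and limma 3.58.1 served as alternatives. Ratios used counts plus 0.5 and exact permutation tests (scipy 1.17.1), adjusted over 9 and over 6 ratios. p-values weigh the difference between the genotypes against the spread between these mice. The script was tested on simulated data. The 3-count level covers counting error only. The members and lists were chosen with earlier results of these data known. The genes named are the members, up to 4 genes per pathway list with an unadjusted p under 0.05 in order of p (the tested gene of smallest p where none passed), and the 5 genes most like each of Col1a1, Col3a1 and Col5a2, of which 1 is not reported here. Genes of marker lists were named after their values were seen.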

Additional observations from a re-analysis of the deposited data

Results flagged for a closer look

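Col5a2 in the WT Old mice was set apart because its highest value, 9.22 CPM in mouse 3, lay far from the other 3 mice, with a gap of 0.87 of the group's range. Among 48 groups of 4 mice examined this was the 1 that passed Dixon's 95% limit of 0.829, and chance passes about 1 in 20. The same mouse was the highest wild type for the other 4 collagens that were separate in CPM.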

How the results depend on the processing

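The 5 collagens higher with an unadjusted p under 0.05 and the 0 with an adjusted p under 0.05 were counted again under each alternative. The first count was 5 under other scalings, filters, tests and each mouse left out (range 5 to 5), the members being the same in each. It was also 5 with the tendon covariate, with Col5a3 in place of Col5a1, and 1 with the fibroblast covariate (Col5a3). The second count was 0 to 0 with each mouse left out, and 2 by DESeq2. The 5 collagens without overlap in CPM became 2 in deposited TPM, an alternative chosen after seeing the data. Limma on the ratios gave 4 of 6 to other matrix genes with an unadjusted p under 0.05. With the fibroblast covariate Col5a1 was reversed at -0.04. Col11a2 ranged from -0.34 to 0.21 with a mouse left out, changing sign without WT Old mouse 4 (0.21), C2-/- Old mouse 1 (0.03) or C2-/- Old mouse 3 (0.07). The Col11a1 to Col5a1 log2 ratio difference ranged from -0.54 to 0.37 and changed sign without WT Old mouse 2 (0.02), WT Old mouse 4 (0.08) or C2-/- Old mouse 3 (0.37). The cause was not tested. Across all tested genes, deviations of same-numbered mice from their group means correlated at 0.27, 0.04, -0.05 and 0.02. The replicate numbers were therefore not taken as pairs. With the replicate block the counts were 5 and 0, but the members had smaller standard errors. Col1a1 was then at 1.38 (SE 0.16 against 0.35, unadjusted p = 3.89e-05, adjusted p = 0.0755, edgeR) and Col3a1 at 1.53 (SE 0.25 against 0.45). For ratios 4 pairs cannot reach a p under 0.05, so the paired test says nothing there. Counts of 3 to 14 limit Col11a1, and 0 to 9 limit Col2a1.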
